A study of Mus musculus with 6 samples.

Results

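DNA repair genes were compared between mouse embryonic stem (ES) cells that carried or lacked the zinc-finger gene Zscan10. The genes were taken by symbol: 53 genes in 7 groups, namely homologous recombination (12 genes), the Fanconi anemia pathway (10), mismatch repair (6), nucleotide excision repair (8), base excision repair (7), end joining (6) and the checkpoint kinases (4). All 53 were found, each at 1 of the 23244 loci listed, and all 53 reached the mean of 1 FPKM (fragments of a gene scaled by transcript length and library size) that the test required. The control group was 3 RNA-seq libraries of ES cells with both Zscan10 alleles floxed and intact, whose titles carry the mark f/f-Tx. The null group was 3 libraries of a subcloned Zscan10-null ES cell line, whose titles carry the mark KO. The series' design ties both to an inducible Cre-loxP line for Zscan10, and Cre and its inducer are not described further in the labels. Since the null cells were a subclone, genotype, clone and whatever Tx stands for cannot be told apart. Separate cultures are not stated for either group, and p-values therefore measure the spread between these libraries, which may be technical.

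DNA repair is divided among pathways by the kind of damage. Homologous recombination copies an intact sister chromatid to mend a double-strand break, end joining ligates the broken ends directly, and the Fanconi anemia pathway unhooks crosslinks that tie the strands together. Mismatch repair removes copying errors behind the replication fork, nucleotide excision repair cuts out bulky lesions, base excision repair removes single damaged bases, and the checkpoint kinases halt the cell cycle while damage persists. ES cells spend much of their short cycle in S phase, when copying of the genome puts these pathways to use.

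Zscan10 itself showed 44.2, 43.0 and 41.9 FPKM in the control libraries against 5.49, 4.43 and 5.47 in the null libraries, so the labels hold in every library. The libraries were of like depth: from the steps between low values, the other 5 held 0.986 to 1.09 times the fragments of control replicate 1, itself at roughly 7570000. Behind a single member this gave as few as 33 to 65 fragments per library (Rad51d) and as many as 10769 to 14028 (Msh6). The 8 ES cell markers summed to 4156 to 4249 FPKM in the control and 3870 to 4178 in the null libraries, with 0 higher and 2 lower. The 8 fibroblast markers, for feeder cells, summed to 3.98 to 4.64 and 3.83 to 4.35 FPKM, and 6 of them stayed under 1 FPKM in every library. Within that list Thy1, the only gene tested, rose from a mean of 1.65 to 2.98 FPKM (limma adjusted p = 0.0215), while Col1a1 went from 0.738 to 0.0861 and Col1a2 from 1.13 to 0.0776. Endoderm markers (8) summed to 49.9 to 53.4 and 20.7 to 29.4 FPKM, trophoblast markers (8) to 48.8 to 54.9 and 56.2 to 70.5, and neural markers (5) to 79.6 to 88.3 and 61.4 to 69.8. Of the 5 tested in each of these lists 3 endoderm genes fell, 3 trophoblast genes rose and 2 neural genes fell. Of all loci tested 12.8% rose and 12.4% fell. Lama1 (control and null means of 23.9 and 6.92 FPKM) and Col4a1 (21.7 and 12.4) made up most of the endoderm sum and fell, as did Cubn (1.68 and 0.609). Gata4 (1.65 and 1.80) and Dab2 (2.10 and 1.18) did not pass, and Sox17 and Foxa2 stayed under 1 FPKM in every library. The trophoblast genes that rose were Tfap2c (18.0 and 25.7), Eomes (1.37 and 4.25) and Hand1 (0.577 and 1.79). Krt8 (15.5 and 13.9) and Krt18 (15.7 and 16.9) did not pass, and Cdx2, Elf5 and Krt7 stayed under 1 FPKM in every library. No listed marker was at 0 in every library. The part of these cell types in the differences of the repair genes was not tested, and in bulk RNA fewer cells of a type and less RNA per cell cannot be told apart.

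Promoters of Chek2, Fanci, Msh6 and Ercc4, from the RefSeq promoter table (GRCm38.p6, the same coordinates as mm10), are shown first, to set the letters before the start beside 4 of the rises described below. The table held a promoter for 44 of the 53 members, not including Rad51d, the member with the largest fall, and 43 of them are used here. The 250 bases before the RefSeq start, which need not be the start in the GENCODE spans given further on, are written 5′ to 3′ on the strand of the gene. Capitals mark matches on either strand to the E2F letters TTTCGCGC, TTTGGCGC, TTTCCCGC or TTTGCCGC, to CCAAT, to the ETS letters CCGGAAGT or to the NRF1 letters GCGCATGC.
Chek2, chr5:110839733-110839982, plus strand: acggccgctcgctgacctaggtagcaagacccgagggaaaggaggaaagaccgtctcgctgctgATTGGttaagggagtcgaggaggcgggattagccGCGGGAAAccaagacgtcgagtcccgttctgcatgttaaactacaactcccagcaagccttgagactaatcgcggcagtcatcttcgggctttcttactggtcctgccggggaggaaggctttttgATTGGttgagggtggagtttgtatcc
Fanci, chr7:79392088-79392337, plus strand: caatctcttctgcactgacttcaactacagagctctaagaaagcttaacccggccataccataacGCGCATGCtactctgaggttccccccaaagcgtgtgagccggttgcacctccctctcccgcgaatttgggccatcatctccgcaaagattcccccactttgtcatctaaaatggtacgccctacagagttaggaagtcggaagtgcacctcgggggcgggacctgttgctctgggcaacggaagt
Msh6, chr17:87974800-87975049, plus strand: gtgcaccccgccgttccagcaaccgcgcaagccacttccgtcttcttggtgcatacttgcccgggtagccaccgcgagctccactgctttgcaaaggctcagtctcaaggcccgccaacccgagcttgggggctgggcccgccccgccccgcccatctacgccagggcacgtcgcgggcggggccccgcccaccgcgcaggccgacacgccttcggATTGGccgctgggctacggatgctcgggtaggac
Ercc4, chr16:13109486-13109735, plus strand: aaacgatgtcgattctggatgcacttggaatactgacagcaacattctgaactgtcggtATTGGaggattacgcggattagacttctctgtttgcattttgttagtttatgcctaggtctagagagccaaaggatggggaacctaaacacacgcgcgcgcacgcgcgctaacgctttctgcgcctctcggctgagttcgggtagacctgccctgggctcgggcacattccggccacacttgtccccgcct
Chek2 held an E2F match 152 bases before its start and CCAAT matches 186 and 26 bases before it. Fanci held an NRF1 match 185 bases before its RefSeq start, and Msh6 and Ercc4 each held a CCAAT match, 34 and 191 bases before theirs. The whole stretch shown for Fanci lies inside its GENCODE span, which begins at chr7:79391929.

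Over the whole 300-base promoters (250 bases before to 50 after the start), E2F letters occurred in 6 of 43 members (14%), in 4.41% of the promoters of tested loci and in 2.32% of all 27025 promoters. NRF1 letters occurred in 8 of 43 members (18.6%), against 6.11% and 2.8%. CCAAT occurred in 62.8% of members, against 39.8% and 37.9%, and the ETS letters in 9.3%, against 8.99% and 4%. Of the 11 members among the 43 that passed the test between groups (limma adjusted p under 0.05), Chek2 and Msh6 (15 bases after its start) held E2F letters. The 4 members with E2F letters that did not pass were Brca2, Fancg, Rad51c and Xrcc6. Among the same 11, NRF1 letters occurred in 3 (27.3%), CCAAT in 6 (54.5%) and the ETS letters in 0. A match is a description of letters, not a measured site.

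Of the 53 members, 12 rose and 4 fell in the null cells at an adjusted p under 0.05 in limma. Of all 11480 loci tested, 25.2% passed, 12.8% higher and 12.4% lower. The members' shares were 30.2% in all, 22.6% higher and 7.55% lower, so the sum lay near the background while the split leaned upward. Those that rose were Chek2, Chek1, Atm, Fanci, Fancm, Msh6, Msh3, Exo1, Ung, Parp1, Ercc4 and Xrcc2. Those that fell were Rad51d, Rad50, Atr and Pms2. The changes were small: the median absolute log2 difference, on the scale log2(FPKM + 1), was 0.24 for the 16 against 0.35 for all loci that passed. No library of either group overlapped the other group in 25 of 53 members, 15 higher and 10 lower (47.2%), against 44.1% of tested loci (21.6% higher, 22.5% lower).

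The count of members that passed depended on which library was left out. It was 8 without control replicate 1 (15.5% of all tested loci) or 2 (15%), 10 without control replicate 3 (16.9%) or null replicate 2 (18.3%), 12 without null replicate 3 (17.2%) and 15 without null replicate 1 (25.4%). Chek2, Fanci, Msh3, Msh6 and Ung kept their call in all 14 alternative settings, which the other 11 did not.

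**Figure D1:**
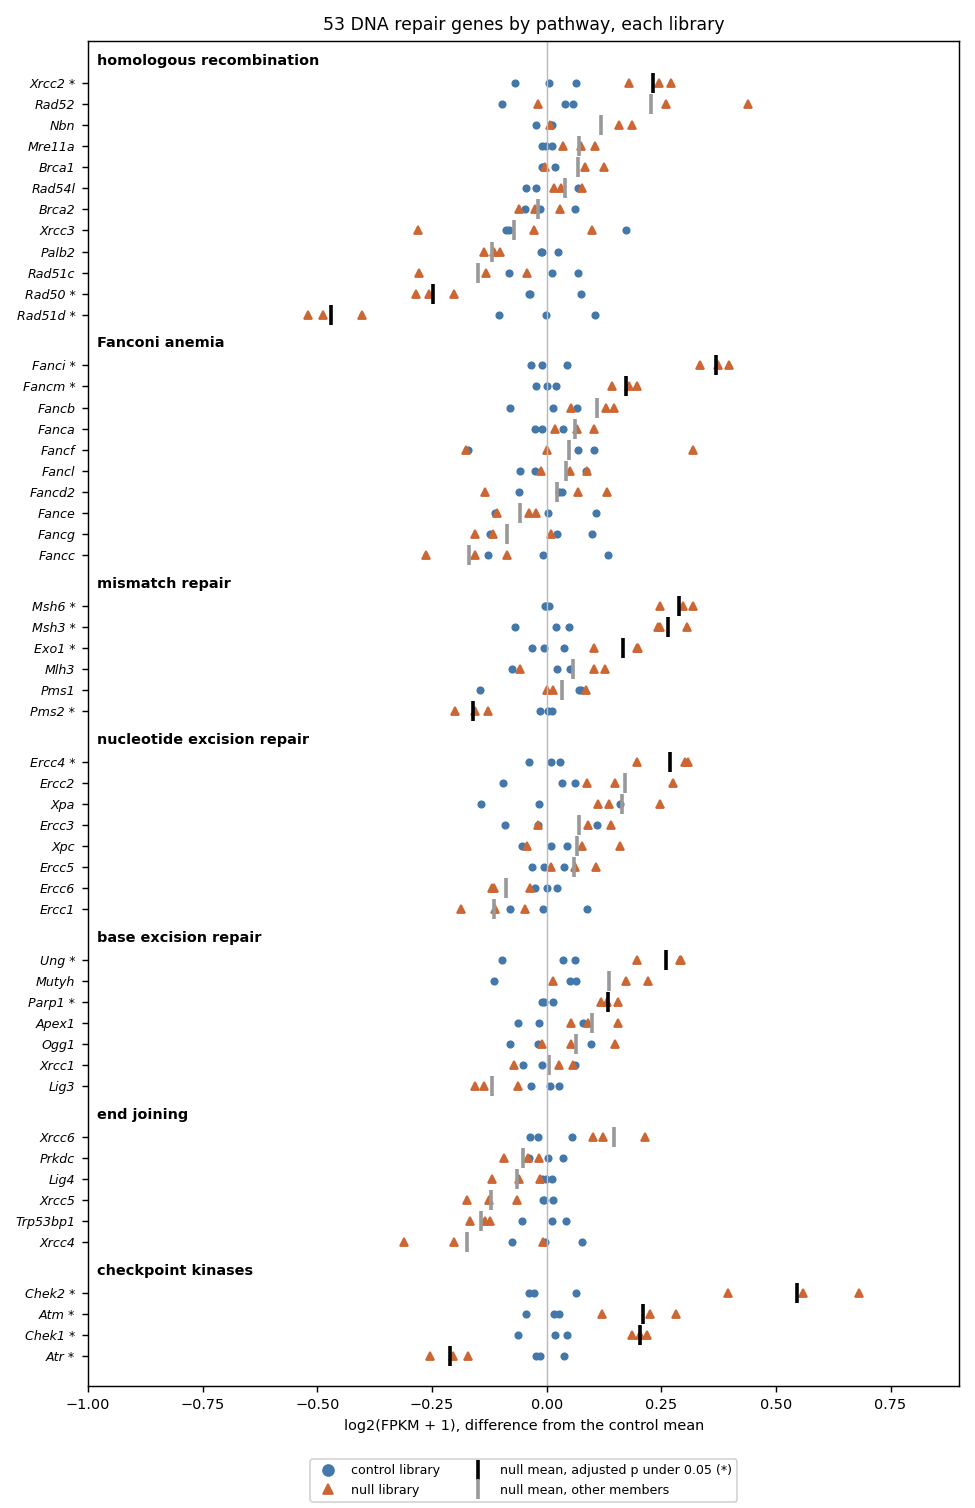
Each row is a repair gene, grouped by pathway, and the horizontal axis gives log2(FPKM + 1) as the difference from the control mean. Circles are the 3 control libraries, triangles the 3 null libraries and upright bars the null mean, black with an asterisk on the name for the 16 genes past the threshold. The null mean lies farthest to the right for Chek2, at 0.55, and farthest to the left for Rad51d, at -0.47.

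All 4 checkpoint kinases passed the threshold, 3 up and 1 down, where 25.2% of all loci tested passed, 12.8% higher and 12.4% lower. The same shares are the background for the counts of every list below. The median log2 difference of the 4 kinases was 0.21 against 0.00 over all loci tested. Chek2, an effector kinase activated by Atm after double-strand breaks (GENCODE span chr5:110839979-110874145), had 26.0, 24.3 and 24.2 FPKM in the control libraries against 33.0, 37.0 and 40.4 in the null libraries. Every null library lay above every control library, and the null libraries were the more widely spread, with means of 24.8 ± 1.01 and 36.8 ± 3.73 FPKM (SD, n = 3 each). This 1.48-fold rise was the largest of the 53 members (log2 difference 0.55, SE 0.07, limma adjusted p = 0.00285). Chek1, the effector kinase activated by Atr when replication stalls, had 32.3, 34.2 and 34.8 FPKM in the control libraries against 39.0, 38.5 and 39.4 in the null libraries. Its groups were apart as well (0.20, SE 0.04, adjusted p = 0.0147).

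The kinases at the head of the pathway moved in opposite directions. Atm, which is recruited to double-strand breaks, had 18.8, 19.8 and 19.6 FPKM in the control libraries against 21.1, 22.8 and 23.8 in the null libraries (log2 difference 0.21, SE 0.06, limma adjusted p = 0.0318). Atr, which is recruited to single-stranded DNA at stalled forks, had 23.8, 24.9 and 24.0 FPKM in the control libraries against 21.4, 20.2 and 20.9 in the null libraries (log2 difference -0.21, SE 0.05, limma adjusted p = 0.0155). In FPKM, Atr was the higher of the pair in every control library. Atm was the higher in null replicates 2 and 3 and just below Atr in null replicate 1. Atm lost its call when any library but null replicate 1 was left out (adjusted p of 0.0724 to 0.103), Atr without control replicate 2 (0.0626) and Chek1 without control replicate 1 (0.0541).

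Of 17 other genes of checkpoint signalling 3 rose and 2 fell. Tipin, which steadies the fork with Timeless, rose from 174 to 212 FPKM (0.28, limma adjusted p = 0.0127). Genes of the phosphatases that activate cell cycle kinases split: Cdc25a rose from 22.2 to 27.98 FPKM (0.32, limma adjusted p = 0.00633), and Cdc25c fell from 12.9 to 10.1 FPKM (-0.33, limma adjusted p = 0.0148). Hus1, a subunit of the checkpoint clamp, rose from 14.3 to 17.2 FPKM. H2afx, the histone variant phosphorylated at breaks, fell from 276 to 255 FPKM.

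In mismatch repair 3 of the 6 genes rose and 1 fell, against 12.8% and 12.4% of all loci tested, at a median log2 difference of 0.11. Msh6, whose product recognises single mismatched bases (chr17:87975062-87990892), was the most abundant of the 53, with 334, 335 and 337 FPKM in the control libraries against 413, 398 and 419 in the null libraries. The null mean was 1.22 times the control mean and the groups were far apart for their spread (log2 difference 0.29, SE 0.03, limma adjusted p = 0.00144). Msh3, whose product recognises larger loops (chr13:92211872-92355003), had 22.9, 21.0 and 22.4 FPKM in the control libraries against 26.4, 26.3 and 27.5 in the null libraries, also without overlap (0.27, SE 0.05, adjusted p = 0.00848). Both rose by about the same factor: the ratio of Msh6 to Msh3 within a library went from 15.2 ± 0.684 to 15.3 ± 0.272, with overlap.

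Exo1, the exonuclease that removes the mismatched strand, had 18.7, 18.1 and 17.7 FPKM in the control libraries against 19.6, 21.0 and 21.0 in the null libraries (log2 difference 0.17, SE 0.05, limma adjusted p = 0.0449). Pms2, the endonuclease subunit of the main MutL complex, had 14.4, 14.4 and 14.2 FPKM in the control libraries against 12.4, 13.0 and 12.7 in the null libraries (-0.16, SE 0.05, adjusted p = 0.0457). Neither gene's groups overlapped, but both lay just inside the threshold. Exo1 lost its call when any library but null replicate 1 was left out (adjusted p of 0.0811 to 0.125), and Pms2 when any of the 6 was (0.0684 to 0.133). Quantile normalization also ended both calls (0.0581 and 0.0510), as did centring on the median of all loci for Pms2 (0.0683) and a fit without the mean-variance trend for Exo1 (0.0586). The genes of the alternative MutL partners did not pass, Mlh3 having means of 13.7 ± 0.666 and 14.3 ± 1.05 FPKM in control and null, and Pms1, the least abundant of the 6, 10.1, 11.9 and 11.9 FPKM in the control libraries against 11.3, 12.02 and 11.4 in the null libraries.

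Of 13 genes for the resynthesis that follows mismatch removal 5 rose and 1 fell. Rpa2, a subunit of the single-strand binding complex, rose from 57.0 to 73.8 FPKM (0.37, limma adjusted p = 0.00387). Rfc2, of the complex that loads the sliding clamp, rose from 50.5 to 64.9 FPKM (0.35, limma adjusted p = 0.00373), and Lig1, the ligase of replication, from 90.3 to 109 FPKM (0.27, limma adjusted p = 0.00450). The clamp gene Pcna rose from 396 to 471 FPKM and the polymerase delta subunit gene Pold3 from 34.1 to 39.4 FPKM, while Rfc5, another loader subunit, fell from 152 to 138 FPKM. These genes also serve replication. Over all loci tested 12.8% rose and 12.4% fell. Of 14 genes on an S-phase list, which holds none of the repair genes, 11 rose and 0 fell. That list summed to 1489 to 1523 FPKM in the control and 1765 to 1790 in the null libraries. Of 12 mitosis genes 4 rose and 1 fell, at sums of 1118 to 1145 and 1107 to 1134 FPKM. The part of the cell cycle in the rises of the repair genes was not tested.

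In the Fanconi anemia pathway 2 of the 10 genes rose and 0 fell, at a median log2 difference of 0.05 (0.0183 without null replicate 2, 0.0259 without control replicate 3 and 0.0753 without control replicate 1). Fanci, a subunit of the clamp that is ubiquitinated at a crosslink (chr7:79391929-79450264), had 22.8, 22.0 and 21.6 FPKM in the control libraries against 28.1, 29.4 and 28.9 in the null libraries. The groups were far apart for their spread, at a ratio of 1.30 (log2 difference 0.37, SE 0.04, limma adjusted p = 0.00176). Its partner in the clamp, Fancd2, had 24.0, 22.6 and 24.1 FPKM in the control libraries against 21.4, 25.9 and 24.8 in the null libraries, which overlapped (adjusted p = 0.853 in limma). Fancm, the translocase that anchors the pathway at damaged DNA, had 19.2, 19.0 and 18.6 FPKM in the control libraries against 21.8, 21.6 and 21.0 in the null libraries (log2 difference 0.17, SE 0.04, limma adjusted p = 0.0253). Its call was lost when any library but null replicate 3 was left out (adjusted p of 0.0502 to 0.0786).

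None of the 7 genes of the core ubiquitin ligase passed. An unadjusted p under 0.05 in limma was reached by 0 of them, and by 4502 of all 11480 loci tested. The ligase subunit gene Fancl was the most abundant, with 27.0, 24.9 and 24.3 FPKM in the control libraries against 27.0, 25.2 and 26.3 in the null libraries. Fancf, an adaptor of the core, was the least abundant, with 4.68, 4.82 and 3.81 FPKM in the control libraries against 4.42, 5.76 and 3.80 in the null libraries. Fanca, Fancb, Fancc, Fance and Fancg had log2 differences of 0.06, 0.11, -0.17, -0.06 and -0.09, each with overlapping groups. Of 8 other genes of the pathway 2 rose and 0 fell. Usp1, which removes ubiquitin from the clamp, rose from 59.5 to 74.5 FPKM (0.32, limma adjusted p = 0.00137), and Apitd1, which encodes a histone-fold partner of Fancm, from 15.2 to 23.2 FPKM (0.58, limma adjusted p = 0.0104).

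Homologous recombination was mixed: 1 of the 12 genes rose and 2 fell, at a median log2 difference of 0.01. Brca1, which promotes resection of the break, was the most abundant, with 35.7, 35.8 and 36.5 FPKM in the control libraries against 35.9, 38.2 and 39.3 in the null libraries (limma adjusted p = 0.306). Brca2, which loads the recombinase, had means of 27.4 ± 1.11 and 27.0 ± 0.857 FPKM in control and null, and the translocase gene Rad54l 24.9 ± 1.08 and 25.6 ± 0.583, both with overlap. Palb2, which bridges Brca1 and Brca2, had 11.5 ± 0.183 and 10.5 ± 0.135 FPKM without overlap, at an adjusted p of 0.121. Rad52, which anneals single strands, had 9.94 ± 0.635 and 11.9 ± 2.01 FPKM (adjusted p = 0.187), and its null replicate 1 lay inside the control range.

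The paralogs of the recombinase, which form small complexes that help it onto DNA, were the 4 least abundant genes of the pathway. Rad51d (chr11:82876434-82890614), the lowest of all 53 members, had 2.51, 2.03 and 2.26 FPKM in the control libraries against 1.27, 1.47 and 1.33 in the null libraries. This was the largest fall of the 53, to 0.598 of the control mean (log2 difference -0.47, SE 0.10, limma adjusted p = 0.0126). Xrcc2, which binds Rad51d in the same complex, rose, with 8.08, 7.71 and 7.27 FPKM in the control libraries against 8.84, 9.28 and 9.48 in the null libraries (0.23, SE 0.06, adjusted p = 0.0331). Rad51c, with means of 4.88 ± 0.307 and 4.30 ± 0.433 FPKM, and Xrcc3, with 5.28 ± 0.667 and 4.997 ± 0.783, overlapped between groups (adjusted p = 0.240 and 0.698). Leaving out any library but null replicate 1 ended the call of Xrcc2 (adjusted p of 0.0541 to 0.101).

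Of the complex of Mre11a, Rad50 and Nbn, which binds broken ends first, only Rad50 passed. Rad50, the coiled-coil subunit (chr11:53649519-53707319), had 22.0, 21.9 and 23.8 FPKM in the control libraries against 18.3, 19.5 and 18.7 in the null libraries, without overlap (log2 difference -0.25, SE 0.05, limma adjusted p = 0.0138). The nuclease gene Mre11a had means of 28.5 ± 0.210 and 30.0 ± 0.763 FPKM (adjusted p = 0.228) and the adaptor gene Nbn 18.9 ± 0.270 and 20.6 ± 1.42 (0.179). Of 23 other genes of recombination 5 rose and 0 fell. The translocase gene Rad54b, at a locus that also names Fsbp, rose from 17.6 to 21.5 FPKM (0.27, limma adjusted p = 0.00542), the helicase gene Wrn from 6.32 to 7.85 FPKM (0.27, limma adjusted p = 0.0258), and Tonsl, which acts at stalled forks, from 11.1 to 13.3 FPKM (0.24, limma adjusted p = 0.0192). Gen1, a resolvase gene, rose from 12.5 to 14.8 FPKM, and Rad51ap1 from 22.4 to 25.3 FPKM.

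In base excision repair 2 of the 7 genes rose and 0 fell, at a median log2 difference of 0.10. Ung, the glycosylase that removes uracil (chr5:114130386-114139323), had 44.2, 45.0 and 40.2 FPKM in the control libraries against 52.9, 52.97 and 49.5 in the null libraries, without overlap (log2 difference 0.26, SE 0.05, limma adjusted p = 0.0141). Parp1, the sensor of strand breaks and after Msh6 the most abundant member, had 232, 229 and 229 FPKM in the control libraries against 256, 249.9 and 252 in the null libraries. The difference was small but exceeded the spread (0.13, SE 0.03, adjusted p = 0.0173). It shrank to 0.04 with quantile normalization (adjusted p = 0.367), and its call was also lost without control replicate 1 (0.0517) or 2 (0.0674) and without the mean-variance trend (0.0643).

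The other 5 genes of base excision did not pass. Ogg1, the glycosylase for oxidised guanine, was the lowest, with 7.53, 7.90 and 8.64 FPKM in the control libraries against 9.001, 7.96 and 8.35 in the null libraries. Mutyh, which removes adenine paired with that lesion, had means of 11.2 ± 0.817 and 12.4 ± 0.992 FPKM in control and null, and Apex1, which cuts the abasic site, 68.6 ± 3.49 and 73.5 ± 2.72. Xrcc1, the scaffold of single-strand break repair, had 39.2 ± 1.59 and 39.3 ± 1.85 FPKM. Its ligase gene Lig3 had 18.7 ± 0.426 and 17.1 ± 0.621 FPKM, without overlap (limma adjusted p = 0.114). Of 15 other genes of the pathway the flap nuclease gene Fen1 passed, rising from 47.7 to 54.7 FPKM (0.20, limma adjusted p = 0.0181), and 0 fell.

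In nucleotide excision repair 1 of the 8 genes rose and 0 fell, at a median log2 difference of 0.07. Ercc4, the catalytic subunit of a nuclease that cuts beside the lesion (chr16:13109684-13150617), was the least abundant of the 8, with 4.199, 4.28 and 4.03 FPKM in the control libraries against 5.40, 5.37 and 4.92 in the null libraries. Its groups did not overlap (log2 difference 0.27, SE 0.07, limma adjusted p = 0.0285). Ercc1, which binds it, had 22.0, 23.2 and 24.9 FPKM in the control libraries against 20.4, 21.5 and 22.6 in the null libraries, with overlap (adjusted p = 0.204). The Ercc4 call was lost without any library but null replicate 3 (adjusted p of 0.0626 to 0.0858).

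The damage sensor gene Xpc, with means of 8.68 ± 0.336 and 9.14 ± 0.713 FPKM in control and null, and the scaffold gene Xpa, with 9.88 ± 1.154 and 11.2 ± 0.620, did not pass. Ercc3, a helicase subunit of the transcription factor TFIIH, was the most abundant of the 8, with 23.8, 27.5 and 25.1 FPKM in the control libraries against 28.2, 25.1 and 27.2 in the null libraries. Ercc2, the other helicase subunit, had 11.2 ± 0.703 and 12.8 ± 0.926 FPKM without overlap (limma adjusted p = 0.121). Ercc5, the other nuclease gene of the pathway, had 10.6 ± 0.281 and 11.1 ± 0.414 FPKM, and Ercc6, which starts repair at stalled polymerases, 5.23 ± 0.104 and 4.86 ± 0.193, the latter without overlap (adjusted p = 0.347). Of 15 other genes tested 4 rose and 0 fell. Gtf2h1 and Gtf2h5, non-helicase subunits of TFIIH, rose from 58.0 to 77.6 FPKM (0.41, limma adjusted p = 0.00139) and from 21.7 to 28.2 FPKM (0.37, limma adjusted p = 0.0132). Gtf2h3, a further subunit, rose from 24.9 to 28.05 FPKM, and Ddb1, of a damage-binding complex, from 335 to 373 FPKM.

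In end joining 0 of the 6 genes passed in limma, and the median log2 difference was -0.09. An unadjusted p under 0.05 was reached by 3 of the 6, and by 4502 of all 11480 loci tested. The genes of the Ku subunits, which thread onto broken ends as a ring, differed in opposite directions. Xrcc5, the more abundant, had 75.4, 75.6 and 76.6 FPKM in the control libraries against 72.4, 67.2 and 69.5 in the null libraries (log2 difference -0.12, SE 0.04, limma adjusted p = 0.0589). Xrcc6 had 40.4, 42.6 and 39.9 FPKM in the control libraries against 43.9, 47.6 and 44.6 in the null libraries (0.15, SE 0.05, adjusted p = 0.0602). Neither gene's groups overlapped and both lay just outside the threshold, as did Trp53bp1, which shields ends from resection, with means of 21.6 ± 0.775 and 19.5 ± 0.322 FPKM (-0.14, SE 0.05, adjusted p = 0.0613).

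Prkdc, the large kinase that Ku recruits, had means of 12.8 ± 0.357 and 12.4 ± 0.366 FPKM in control and null. The ligase gene Lig4 had 6.83, 6.72 and 6.76 FPKM in the control libraries against 6.45, 6.70 and 6.15 in the null libraries, and its scaffold gene Xrcc4 7.24 ± 0.434 and 6.33 ± 0.793 FPKM. Of 8 other genes of end joining 2 rose and 0 fell. Dclre1c, the nuclease that opens hairpin ends, rose from 17.6 to 25.6 FPKM (0.52, limma adjusted p = 0.00492), and Rif1, which acts with Trp53bp1, from 187 to 219.5 FPKM (0.23, limma adjusted p = 0.00566).

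**Figure D2:**
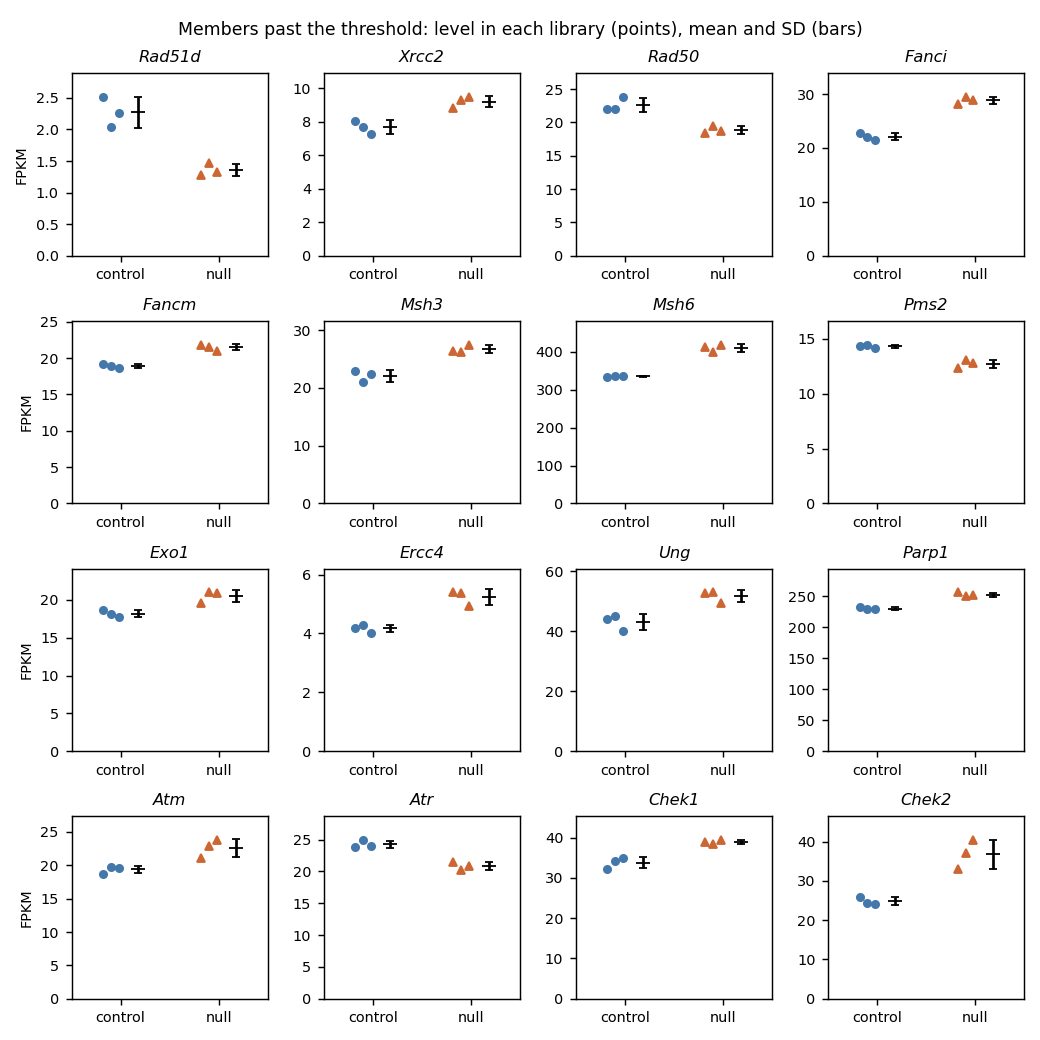
Each panel gives the level in FPKM, on an axis that starts at 0, of 1 of the 16 repair genes past the threshold in the 3 control libraries (circles) and the 3 null libraries (triangles), with the group mean and SD as bars beside them. The groups are apart in every panel, and the ratio of the means runs from 0.598 for Rad51d to 1.48 for Chek2.

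Over the 7 pathways, 22 of 99 other repair genes tested rose and 3 fell. That is 25.3% in all and 22.2% higher, against the background of 25.2% and 12.8% and the members' 30.2% and 22.6%. Their median log2 difference was 0.06, the same as that of the members. The count of 25 dropped to 15 without control replicate 1 and to 16 without null replicate 2.

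Ratios between genes whose products work together do not depend on how libraries are scaled to each other, and 14 such pairs were compared within each library, listed after the values of their genes had been seen. The groups did not overlap for 8 of them, and as the values were known when the pairs were listed and 44.1% of single tested loci do not overlap either, nothing particular to partner genes is read from that count. An exact two-sided permutation test of 3 against 3 libraries cannot go below p = 0.1, so no pair can pass by itself. The lowest p of that test after Benjamini-Hochberg adjustment over the 14 was 0.175 here.

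The ratio of Xrcc2 to Rad51d was 3.21, 3.79 and 3.22 in the control libraries and 6.93, 6.32 and 7.14 in the null libraries, the largest shift of the 14. It rests on the 33 to 65 fragments per library of Rad51d, which lies on chromosome 11, whose loci were lower as a whole (below). Ratios were taken of FPKM without the added 1, so their shifts are not on the scale of the genes' own log2 differences. That of Atm to Atr was 0.787, 0.793 and 0.818 in the control libraries and 0.987, 1.13 and 1.14 in the null libraries. That of Fanci to Fancd2 was 0.949, 0.974 and 0.893 in the control libraries and 1.32, 1.14 and 1.17 in the null libraries. In Atm to Atr and in Fanci to Fancd2 the control ratios were all under 1, whereas null ratios passed 1 in 2 of 3 libraries for the first pair and in 3 of 3 for the second. As FPKM is scaled by the transcript length taken for each gene, a ratio of 1 is no fixed mark of equal abundance. Only the shift between groups is read.

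Ercc4 to Ercc1 went from 0.179 ± 0.0151 to 0.244 ± 0.0238, after Xrcc2 to Rad51d the largest shift on the log2 scale. Of the Ku subunits, Xrcc6 to Xrcc5 went from 0.540 ± 0.0216 to 0.653 ± 0.0520, and of the effector kinases, Chek2 to Chek1 went from 0.737 ± 0.0601 to 0.944 ± 0.0915. Mlh3 to Pms2 went from 0.956 ± 0.0510 to 1.13 ± 0.0556. Rad50 to Mre11a went from 0.792 ± 0.0318 to 0.629 ± 0.0355, the only fall among the 8, and Rad50 too lies on chromosome 11. The groups overlapped for Brca2 to Palb2, Rad51c to Xrcc3, Nbn to Mre11a, Msh6 to Msh3, Lig3 to Xrcc1 and Lig4 to Xrcc4.

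**Figure D3:**
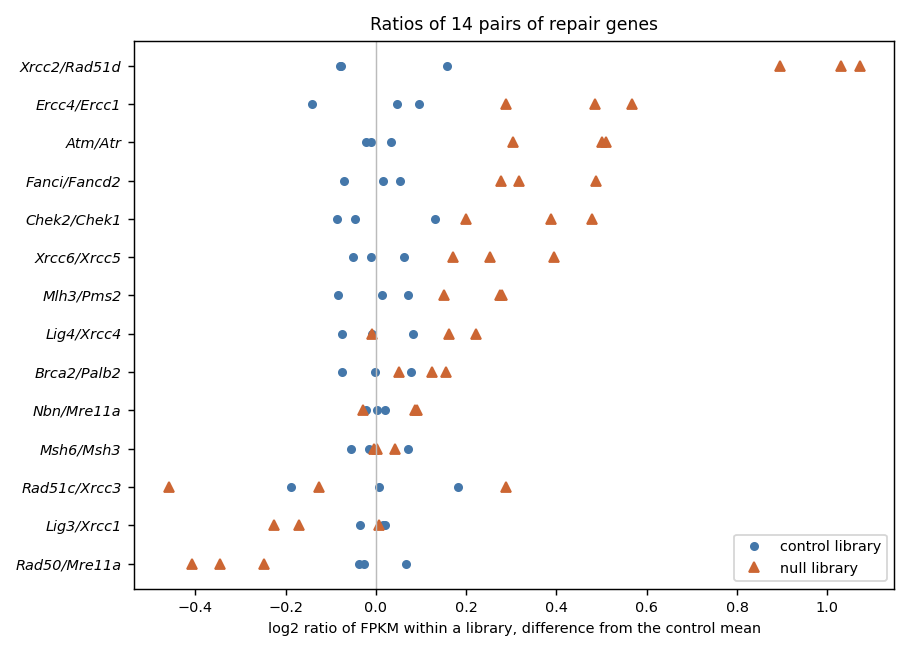
Each row is a pair of repair genes, and the horizontal axis gives the log2 ratio of their FPKM within a library as the difference from the control mean, for the 3 control (circles) and 3 null libraries (triangles). Xrcc2/Rad51d lies farthest to the right, with a shift of the mean of 0.999, and Rad50/Mre11a is shifted to the left by -0.33 without overlap.

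Of the 4 members that fell, Rad51d and Rad50 lie on chromosome 11, with Brca1, Rad51c, Fancl and Lig3. Loci of that chromosome were lower in the null libraries as a whole: of 941 tested, 27.6% fell and 6.06% rose, and their median log2 difference was -0.12, against 0.00 for the 10539 tested loci elsewhere. The 6 members there had a median of -0.13, with 0 higher and 2 lower, and the other 47 a median of 0.06, with 12 higher and 2 lower. When each library was centred on the loci of the same chromosome, 13 members rose and 1 fell, where 23.7% of all tested loci passed, 14% higher and 9.72% lower. Under that centring Rad50 went from -0.25 to -0.11 (limma adjusted p = 0.158) and Rad51d from -0.47 to -0.33 (0.0506), and Brca1 went from 0.07 to 0.21 and passed (0.0120). Fancm, on chromosome 12, and Pms2, on chromosome 5, lost their calls (0.0954 and 0.0641). What sets the loci of chromosome 11 apart was not tested.

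**Figure D4:**
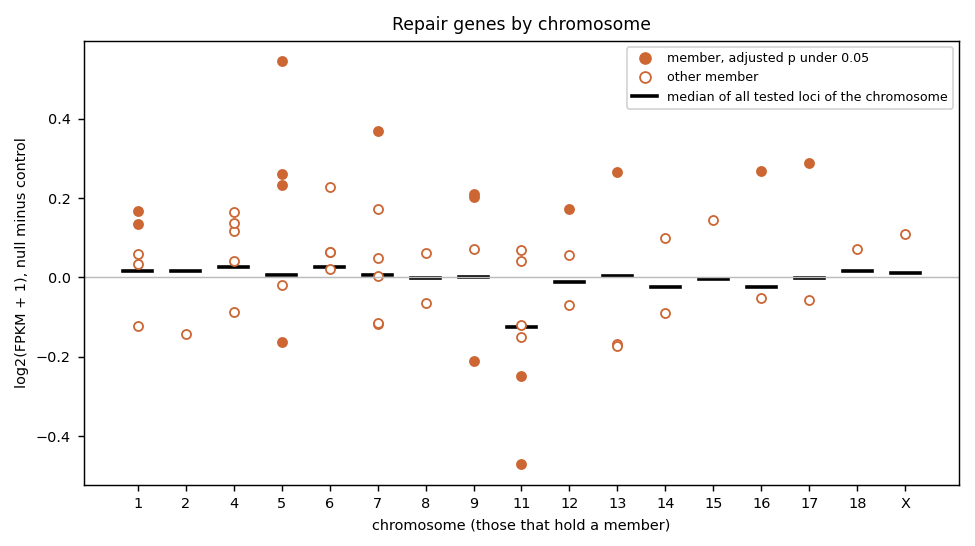
Each point is a repair gene, placed by its chromosome along the horizontal axis, with its log2(FPKM + 1) difference, null minus control, on the vertical axis, filled where the adjusted p was under 0.05. Black bars are the median of all tested loci of that chromosome, which lies at -0.12 on chromosome 11 and between -0.02 and 0.03 on the others shown.

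Many repair genes share their start region with a gene read the other way. In the GENCODE M21 annotation the 19 pairs reported here of a member and a tested neighbour on the opposite strand had starts within 1000 bases of each other, listed after the members' values had been seen. Of the 19 neighbours 6 passed the threshold, each beside a member that did not pass, near the share of all loci (25.2%).

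For the 3 members of these pairs that passed, the neighbour was not past the threshold. Hscb, beside Chek2, had 9.26 FPKM in the control and 9.22 in the null mean, and Npat, beside Atm, 16.3 FPKM in the control and 16.1 in the null mean. Aimp2, beside Pms2, had 49.99 FPKM in the control and 43.2 in the null mean (-0.20, limma adjusted p = 0.0704), the same direction as Pms2 (-0.16). In 12 of the 19 pairs member and neighbour differed in the same direction. Several of the differences were very small, such as 0.002 for Nbr1, beside Brca1, and -0.005 for Emc3, beside Fancd2. No reference share was computed for that count, and nothing is read from it. Of the 6 neighbours that passed, Tex14, beside Rad51c, fell, with 9.42 FPKM in the control and 4.76 in the null mean (-0.85, limma adjusted p = 0.000521), and Mcm4, a helicase subunit of replication beside Prkdc, rose, with 93.8 FPKM in the control and 115 in the null mean (0.29, limma adjusted p = 0.00186). Pomgnt1, beside Rad54l, had 12.003 FPKM in the control and 15.2 in the null mean (0.32, limma adjusted p = 0.0380), and Lsm3, beside Xpc, 177 FPKM in the control and 201 in the null mean (0.18, limma adjusted p = 0.0114). Osgep, beside Apex1, had 35.9 FPKM in the control and 40.9 in the null mean (0.19, limma adjusted p = 0.0454), and Gas2, beside Fancf, fell, with 2.15 FPKM in the control and 1.35 in the null mean (-0.42, limma adjusted p = 0.0181).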

How the data were processed

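RNA depleted of ribosomal RNA was sequenced, per the labels' protocols. Trim Galore, FastQC, TopHat, Cuffdiff and mm10 are named in the submitters' processing notes, without roles or versions. The unit is not named: the deposited values, 1 per locus and library, were taken as FPKM that the authors made, since they are not whole and low values move in steps (87.7% of 3363 values under 0.15 FPKM were whole multiples of a step within 1%). Strand use is not stated there.

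Members and lists were chosen with earlier results of these data known. Tests used limma 3.58.1 in R 4.3.3, fitted to log2(FPKM + 1) with a mean-variance trend, for the 11480 loci whose mean reached 1 FPKM, with Benjamini-Hochberg adjustment over all of them at 0.05. Log2 differences are null minus control on that scale, which understates low genes. The fit was also run on simulated data with independent noise and far fewer changed genes than passed here, so nothing about these data is read from that run. Named genes were the 53 members (each library for those past the threshold and for the highest and lowest of each pathway), up to 3 other repair genes per pathway with the largest change past the threshold, and Zscan10. The remaining repair genes past the threshold, values per library of Fancd2, Ercc1 and Xrcc6, and the neighbours were named after their values were seen. Of 103 other repair symbols 100 were found. Promoters came from RefSeq on GRCm38.p6 and starts from GENCODE M21, and 1 start region is not reported here. Alternatives changed the pseudocount, minimum, scaling, trend, a replicate block, centring by chromosome and each library in turn.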

Additional observations from a re-analysis of the deposited data

How the results depend on the processing

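None of the 16 members past the threshold changed direction in the alternatives run for it, 14 for each but Ercc4 and Rad51d, which a minimum of 5 FPKM left untested (13). Centring each library on its chromosome left 1 member lower, set the median of the chromosome 11 members at 0.00521 and that of nucleotide excision repair at 0.0897, and moved Fancd2 to -0.000416, Xrcc1 to -0.0190 and Lig3 to 0.0211. Centring on the median of all loci gave 0.0896 for nucleotide excision repair, 0.0861 for members off chromosome 11 and 0.00315 for Brca2. Quantile normalization gave 0.0951 for nucleotide excision, 0.0583 for base excision and -0.0304 for Xrcc1. A minimum of 5 FPKM left fewer members tested and gave medians of 0.0546 for homologous recombination and -0.0381 for chromosome 11. With no minimum Xrcc2, Pms2, Exo1 and Ercc4 lost their calls (limma adjusted p of 0.0569, 0.0612, 0.0594 and 0.0607). Apart from what is stated here and beside the results, the cause of these moves was not tested. With 1 library left out, members called ranged from 8 to 15, higher from 5 to 11 and lower from 2 to 4, other repair genes called from 15 to 27 and all loci called from 1719 to 2914. Medians ranged from -0.00936 to 0.0441 (homologous recombination), 0.0863 to 0.157 (mismatch repair), 0.0183 to 0.0753 (Fanconi anemia), 0.0580 to 0.107 (nucleotide excision), 0.0690 to 0.118 (base excision) and 0.0670 to 0.0846 (members off chromosome 11). Log2 differences ranged from -0.0426 to 0.0120 (Brca2), -0.155 to 0.0348 (Xrcc3), -0.0327 to 0.1004 (Fancd2), -0.0872 to 0.160 (Fancf), -0.0390 to 0.0704 (Pms1) and -0.0225 to 0.0419 (Xrcc1). Members that gained a call in some setting numbered 6 of 37: Brca1, Apex1, Rad52, Xrcc5, Xrcc6 and Trp53bp1. Correlations of same-numbered deviations were -0.00242, 0.108 and 0.0527, and those of other numbers ran from -0.222 to 0.163. Relative depths in control and null were 1 and 0.986 for replicate 1, 1.09 and 1.09 for replicate 2, and 0.996 and 0.999 for replicate 3. With so few libraries these values cannot decide whether replicate numbers pair the samples. With a replicate block 11 members passed, all among the 16. Xrcc2, Fancm, Pms2, Exo1 and Ercc4 lost their calls under it (limma adjusted p of 0.0794, 0.0546, 0.0892, 0.0947 and 0.0566). At about 33 to 65 fragments per library, Rad51d is the member whose values depth limits most.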
